A study of Homo sapiens with 6 samples.

Results

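The 8 genes described here encode the nuclear lamins and proteins anchored beside them in the inner nuclear membrane. They were chosen by name, as the lamin genes *LMNA*, *LMNB1* and *LMNB2*, the lamin B receptor gene *LBR*, the emerin gene *EMD*, the lamina-associated polypeptide gene *TMPO* and the SUN-domain genes *SUN1* and *SUN2*. Each matched 1 human Ensembl identifier, so all 8 were found among the 58735 genes of the expression table. All 8 passed the filter on low values used for testing, a mean of at least 1 FPKM over the 6 libraries.

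The lamins are intermediate filament proteins that form a meshwork, the nuclear lamina, under the inner nuclear membrane. B-type lamins carry a lasting lipid tail and stay close to the membrane, whereas the A-type lamins A and C, both made from *LMNA*, also occur inside the nucleus. The membrane proteins hold chromatin and the lamina at the nuclear rim, the SUN proteins link the lamina to the cytoskeleton through KASH-domain partners, and loss of lamin B1 is a widely used mark of senescent cells.

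RNA was sequenced from HGC27 cells, an established human line from an undifferentiated gastric carcinoma, in a screen for genes that respond to ARV-825. The ARV-825 treatment group received 0.125 µM ARV-825 (ARV125nM in the titles) for 48 h (n = 3), and the control group, called untreated in the labels and DMSO in the study's methods, received 0 nM (n = 3). ARV-825 joins a BET bromodomain ligand to a ligand of cereblon, so that BET proteins are ubiquitinated and degraded. All 6 libraries came from unmodified cells of this 1 line grown in DMEM with fetal bovine serum. Whether the 3 samples of a group were separate cultures is not stated, so the p-values measure a spread that may be only technical. The values are FPKM, fragments per kilobase of exon scaled by a depth figure for each library.

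Whole fragments could be recovered from the FPKM values, and fragments in genes numbered 16626609 to 19145661 in the DMSO libraries and 14821971 to 15201942 in the ARV-825 libraries. Mitochondrial genes took 5.62% to 6.24% of them in DMSO and 9.84% to 12.0% in ARV-825. ARV-825 replicate 1 stood apart, since its fragments differed from its group's other libraries with a chi-square of 6.02 to 6.68 for each degree of freedom, where those others gave 1.62 between them and the DMSO pairs 1.76 to 2.09. The labelled identity was checked against markers. None of 5 epithelial markers (*KRT8*, *KRT18*, *KRT19*, *EPCAM*, *CDH1*) and none of 6 gastric markers (*MUC5AC*, *MUC6*, *TFF1*, *TFF2*, *GKN1*, *CLDN18*) reached the filter. Their summed levels were 0 to 0.120 and 0.240 to 0.338 FPKM in DMSO, and 0.549 to 0.738 and 0.238 to 0.292 FPKM in ARV-825, with *TFF1*, *TFF2* and *GKN1* at 0 in every library. Among markers of other cells, the collagen gene *COL1A1* fell from a mean of 141.5 to 27.2 FPKM, *DCN* from 13.7 to 2.39 and *LUM* from 75.7 to 53.4, while the muscle actin gene *ACTA2* was 0.911 and 1.49 FPKM. The list of other cells summed to 231 to 233 FPKM in DMSO against 83.7 to 85.4 FPKM in ARV-825, with the leukocyte gene *PTPRC* at no more than 0.0726 FPKM and the endothelial gene *PECAM1* at 0 in the DMSO libraries. The part of these genes in the results below was not tested. The epithelial and gastric markers did not bear out a gastric epithelial identity, so the name of the line rests on the study's own description.

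After ARV-825 treatment, transcripts of both B-type lamins, of *LBR*, of *TMPO* and of *SUN2* were lower in HGC27 cells. *LMNB1* had 0.247 times and *TMPO* 0.298 times the DMSO level. *SUN1* was 1.48 times, *EMD* 1.25 times and *LMNA* 1.19 times the DMSO level in FPKM. Rescaling to TPM makes each library sum to the same total. Under TPM the log2 fold change was only 0.01 for *EMD* (adjusted p = 0.927 from limma) and −0.07 for *LMNA* (adjusted p = 0.471 from limma). In limma's test across 13442 genes, 5 of the 8 genes were lower and 3 higher at a Benjamini-Hochberg adjusted p under 0.05. The treatment moved most of the genes tested, however, with 40.2% lower and 37% higher at the same threshold, 77.2% in all. At an absolute log2 fold change above 1 as well, *LMNB1* and *TMPO* were lower, against 12.1% of all genes, and none of the 8 was higher, against 8.81%. The groups did not overlap for any of the 8 genes, nor for 80.1% of all genes tested. A share of 8 in 8 called genes is therefore near what the whole table gives, and the size and direction of each change carry the description.

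**Figure D1:**
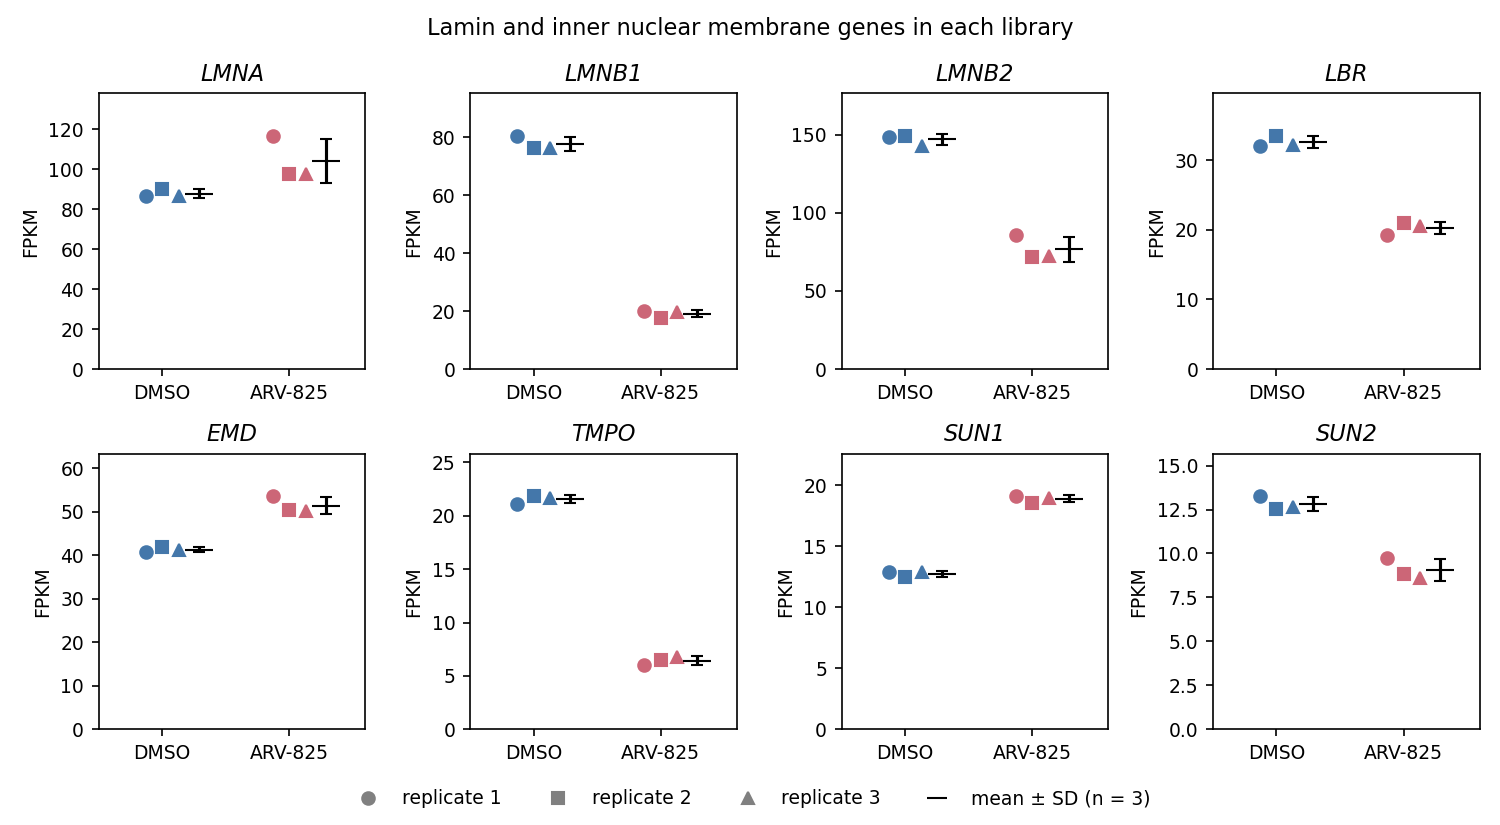
FPKM (vertical axes, each from 0) of the 8 genes in the 3 DMSO and 3 ARV-825 libraries, with a symbol for each replicate and a bar for the mean ± SD (n = 3). In every panel the ARV-825 points lie apart from the DMSO points. The gap is widest in proportion for *LMNB1* (77.8 to 19.2 FPKM) and *TMPO* (21.5 to 6.43 FPKM). After rescaling to TPM, *LMNA* and *EMD*, higher here, no longer pass the adjusted p of 0.05.

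Sequence upstream of RefSeq start sites is shown for the lamin genes and *TMPO*, because they carry the largest fall and the A-type to B-type contrast. Start regions of 7 of the 8 genes were found in RefSeq (GRCh38.p14), with no entry for *SUN1*. Windows of 300 bases, from 250 before to 50 after each start, were searched on both strands for 4 motifs. These were the E2F motif (spelled TTTCCCGC or TTTCGCGC or TTTGCCGC or TTTGGCGC), the cell-cycle homology region (spelled TTTGAA or TTCGAA), the box spelled CCAAT and the E-box (spelled CACGTG). None of these motifs overlaps another in the genes shown. Genes with several starts had several windows, 13 for the 7 genes, and a gene was counted if any of its windows held the motif. The E2F motif stood in a window of *LMNA* alone, 1 of the 7 genes, and in 3.99% of 27305 genes. The homology region stood in *LMNB2* and *SUN2* and in 19.5% of genes. The CCAAT box stood in *EMD*, *LMNA*, *LMNB1*, *SUN2* and *TMPO* and in 39.7% of genes. The E-box stood in *LMNB1* and in 8.77% of genes. The genes and stretches printed were chosen after these matches were seen, and a match of letters is a description, not a bound site. Bases in transcribed untranslated or coding parts are left out, apart from short runs around a match, and capitals mark the matched letters.
*LMNA*, chr1:156082323-156082572, plus strand, ending 1 base before the start, with the CCAAT box at −146 and the E2F motif at −23: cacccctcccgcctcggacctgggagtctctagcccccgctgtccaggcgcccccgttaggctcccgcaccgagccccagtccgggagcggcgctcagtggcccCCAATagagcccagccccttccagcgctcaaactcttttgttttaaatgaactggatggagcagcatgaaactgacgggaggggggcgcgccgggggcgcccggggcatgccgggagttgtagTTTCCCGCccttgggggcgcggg
*LMNB1*, chr5:126776994-126777023, plus strand, −142 to −113 from a start at 126777136, with a CCAAT box in reverse at −138 and the E-box at −122: ccccATTGGcccatggtagtCACGTGgagg
*LMNB2*, chr19:2456997-2457209, minus strand, −250 to −38, with the homology region at −246: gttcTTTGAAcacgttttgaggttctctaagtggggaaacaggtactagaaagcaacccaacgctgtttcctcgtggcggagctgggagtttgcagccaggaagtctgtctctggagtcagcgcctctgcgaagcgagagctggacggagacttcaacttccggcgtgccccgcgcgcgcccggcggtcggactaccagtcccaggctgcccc
*TMPO*, chr12:98515516-98515540, plus strand, −57 to −33, with a CCAAT box at −47: agccgtctcgCCAATcaccgccgcg
*TMPO*, chr12:98515548-98515572, plus strand, −25 to −1, with a CCAAT box at −15: ccgtcgcccgCCAATggcggcgcgc
The E2F letters thus stand in 1 window of the A-type lamin gene, the one printed, and not in its windows at other starts. They stand in none of the windows of the B-type genes or *TMPO*. The E-box likewise stands in only 1 of the 13 windows, at the *LMNB1* start given above. No match says only that those letters are not in this window.

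*LMNB1* encodes lamin B1 and lies on chr5:126776623-126837020 (plus strand, GRCh38, GENCODE 29). Its level was 80.7, 76.3 and 76.3 FPKM in DMSO replicates 1, 2 and 3 against 20.0, 17.7 and 19.8 FPKM in ARV-825 replicates 1, 2 and 3. Every ARV-825 library was far below every DMSO library, and the libraries within a group were close. The means were 77.8 ± 2.52 and 19.2 ± 1.30 FPKM (SD, n = 3 each), which is a log2 fold change of −1.97 on the log2(FPKM + 1) scale (SE 0.0549, 95% interval −2.10 to −1.84, adjusted p = 3.47e-07 from limma). It rested on 4773 to 5594 fragments in DMSO and 965 to 1060 in ARV-825. Only 1.43% of the genes tested had a lower log2 fold change. In bulk RNA, fewer cells that express a gene and less RNA per cell cannot be told apart. Without ARV-825 replicate 1 the log2 fold change was −2.00. The divergent transcript *LMNB1-DT*, which starts beside *LMNB1* on the other strand, stayed at or below 0.300 FPKM in every library.

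*LMNB2*, on chr19:2427638-2456996 (minus strand), encodes lamin B2 and had the highest level of the 8 genes in DMSO. It measured 149, 149.6 and 143 FPKM in the DMSO libraries against 86.1, 71.5 and 72.4 FPKM in the ARV-825 libraries. The groups lay apart, and ARV-825 replicate 1 was the highest of its group. The means of 147 ± 3.47 and 76.7 ± 8.21 FPKM gave a log2 fold change of −0.94 (SE 0.0733, 95% interval −1.11 to −0.76, adjusted p = 2.37e-05 from limma). That is just short of the fold threshold of 1, and the value lay past it without ARV-825 replicate 1 (−1.02), after scaling to fragments in genes (−1.02) and after rescaling to TPM (−1.25). The gene shares 4.73% of its exon bases with *TIMM13*, a mitochondrial import gene on the same strand, which fell from 66.6 to 31.2 FPKM, and the part of that overlap was not tested.

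*LMNA*, the gene of lamins A and C, lies on chr1:156082573-156140089 (plus strand). Its level was 86.5, 90.3 and 86.7 FPKM in DMSO against 117, 97.7 and 97.6 FPKM in ARV-825. The groups did not overlap, but the ARV-825 mean leaned on replicate 1. The means were 87.8 ± 2.13 and 104 ± 11.2 FPKM, a log2 fold change of 0.24 (SE 0.0735, 95% interval 0.06 to 0.41, adjusted p = 0.0213 from limma). Without ARV-825 replicate 1 it was 0.15 (adjusted p = 0.00277 from limma). The direction depended on the scaling of the libraries, with 0.15 after scaling to fragments in genes (adjusted p = 0.0861) and −0.07 after rescaling to TPM (adjusted p = 0.471). Under TPM the median of all genes moved from −0.02 to −0.31, and relative to that median *LMNA* lay 0.25 higher as deposited and 0.24 higher under TPM. The values are per gene and do not separate lamin A from lamin C.

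**Figure D2:**
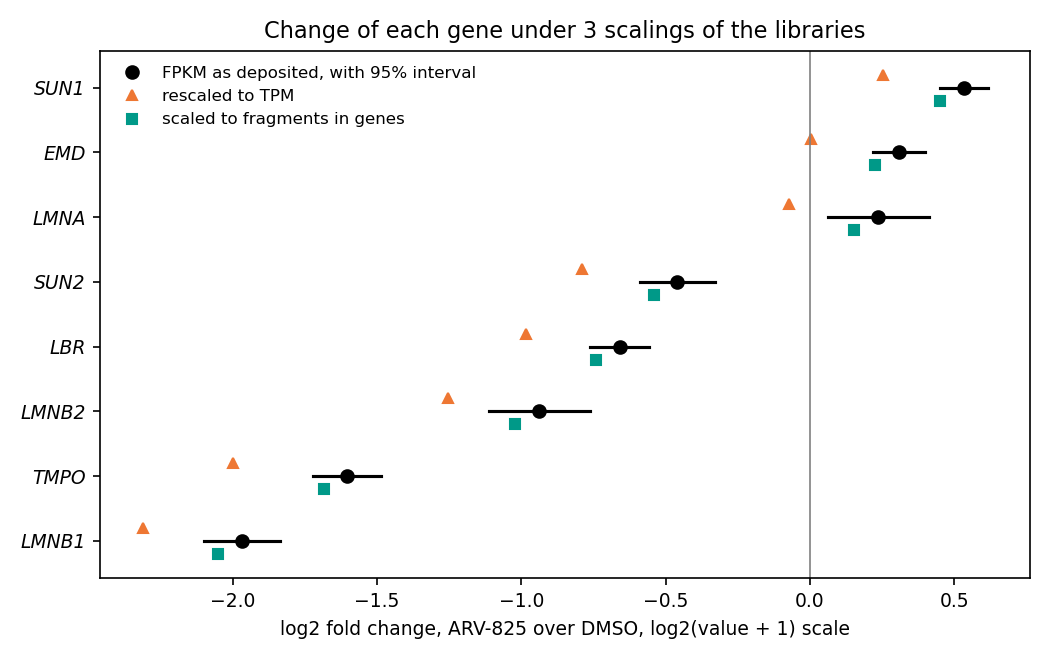
Log2 fold change (horizontal axis, ARV-825 over DMSO, log2(value + 1) scale) of the 8 genes under 3 scalings, with the 95% interval of the deposited FPKM as a line. *LMNB1*, *TMPO*, *LMNB2*, *LBR* and *SUN2* lie below 0 under each scaling and *SUN1* above it, *EMD* shrinks from 0.31 to 0.01 under TPM, and *LMNA* passes from 0.24 to −0.07.

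Ratios within a library do not depend on how libraries are scaled. *LMNB1* to *LMNA* was 0.933, 0.845 and 0.880 in DMSO replicates 1, 2 and 3 against 0.171, 0.181 and 0.203 in ARV-825 replicates 1, 2 and 3, a log2 change of −2.26. *LMNB2* to *LMNA* was 1.72, 1.66 and 1.65 in DMSO against 0.736, 0.732 and 0.741 in ARV-825, a log2 change of −1.19. Both B-type transcripts were therefore lower against the A-type transcript in each ARV-825 library than in any DMSO library. The 2 B-type genes also parted from each other, with *LMNB1* to *LMNB2* at 0.542, 0.510 and 0.533 in DMSO against 0.232, 0.247 and 0.274 in ARV-825. Summed over both B-type genes, the ratio to *LMNA* was 2.50 to 2.65 in DMSO and 0.907 to 0.945 in ARV-825. Each of the 5 ratios computed, the SUN ratio below included, had an exact two-sided permutation p of 0.1 and an adjusted p of 0.1, the smallest that 3 libraries against 3 allow. As a share of summed lamin FPKM, *LMNA* made up 28.1% ± 0.623 in DMSO and 52.0% ± 0.541 in ARV-825, *LMNB1* 24.9% ± 0.702 and 9.62% ± 0.752, and *LMNB2* 47.1% ± 0.272 and 38.3% ± 0.246 (SD, n = 3 each). The sum itself went from 313 ± 5.70 to 199.9 ± 20.1 FPKM.

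**Figure D3:**
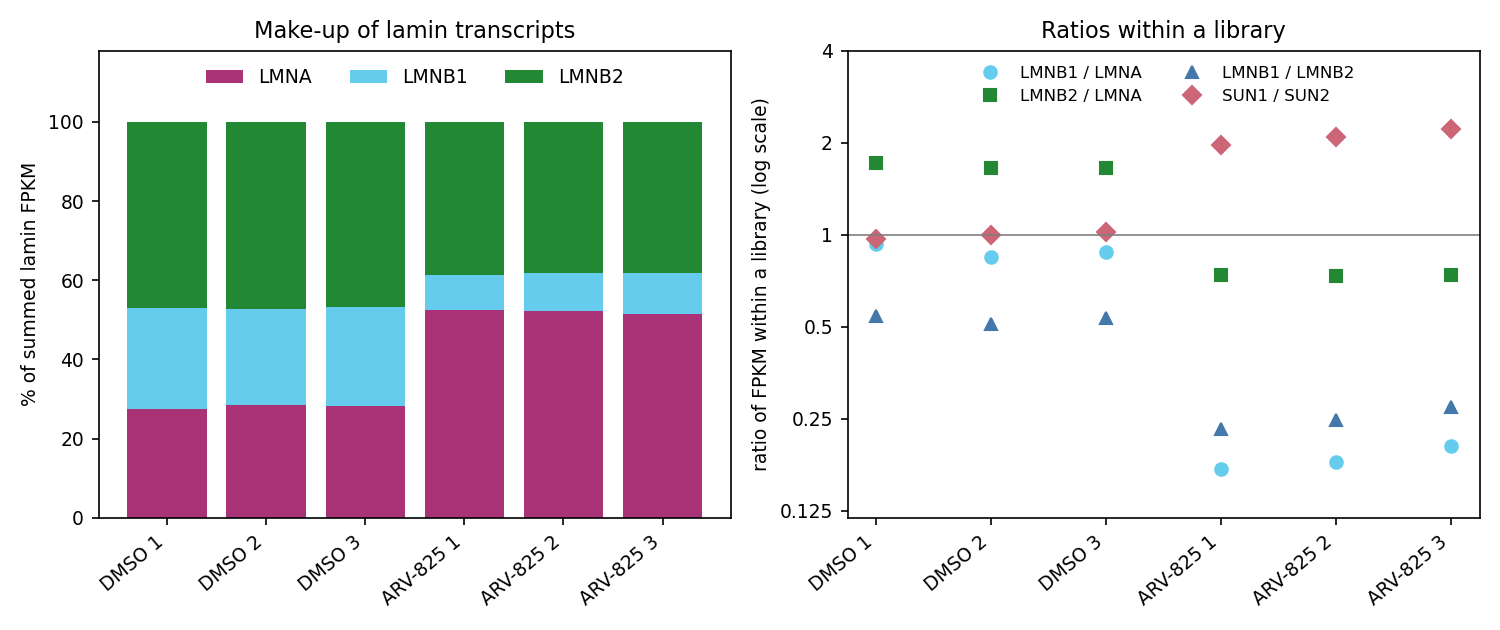
Left, share of *LMNA*, *LMNB1* and *LMNB2* in the summed lamin FPKM of each library (stacked bars, %), and right, ratios of FPKM within a library on a log axis. *LMNA* takes 27.4% to 28.6% of the sum in DMSO and 51.4% to 52.4% in ARV-825, and the ratio of *SUN1* to *SUN2* lies near 1 in DMSO and between 1.96 and 2.21 in ARV-825.

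*LBR* encodes the lamin B receptor, which binds B-type lamins and heterochromatin protein and whose membrane part is a sterol reductase. It lies on chr1:225401502-225428925 (minus strand). Its level was 32.0, 33.5 and 32.2 FPKM in DMSO against 19.3, 21.0 and 20.6 FPKM in ARV-825. Each ARV-825 value lay well under each DMSO value. The log2 fold change was −0.66 (SE 0.0427, 95% interval −0.76 to −0.56, adjusted p = 9.47e-06 from limma), from 32.6 ± 0.827 to 20.3 ± 0.876 FPKM.

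*TMPO*, on chr12:98515512-98550379 (plus strand), encodes the LAP2 proteins, which carry a LEM domain. The membrane forms bind lamin B and chromatin, and the soluble alpha form binds A-type lamins. It measured 21.1, 21.8 and 21.7 FPKM in DMSO against 5.99, 6.52 and 6.78 FPKM in ARV-825. Every ARV-825 library lay far under every DMSO library. The means of 21.5 ± 0.390 and 6.43 ± 0.402 FPKM gave a log2 fold change of −1.60 (SE 0.0491, 95% interval −1.72 to −1.49, adjusted p = 4.59e-07 from limma), with 3232 to 3757 fragments in DMSO and 750 to 852 in ARV-825. Of the genes tested, 3.52% had a lower log2 fold change. The scale understates the change of a gene at this level, and with a pseudocount of 0.1 in place of 1 the value was −1.73. *TMPO-AS1*, on the opposite strand, covers 8.30% of the *TMPO* exon bases and went from 1.24 to 0.573 FPKM. The library kit named in the labels does not mark strand, so reads of an antisense pair cannot be told apart. Of the processed copies, *TMPOP1* was at 0 in every library, and *TMPOP2* was 0.186, 0.580 and 0.124 FPKM in DMSO against 0 in ARV-825. The gene values do not separate the alpha form from the membrane forms.

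*EMD* encodes emerin, a LEM-domain membrane protein that binds lamins and the chromatin protein BAF, on chrX:154379197-154381523 (plus strand). Its level was 40.7, 41.8 and 41.3 FPKM in DMSO against 53.6, 50.5 and 50.2 FPKM in ARV-825. All 3 ARV-825 libraries were higher, replicate 1 the most. The log2 fold change was 0.31 (SE 0.0375, 95% interval 0.22 to 0.40, adjusted p = 0.000229 from limma) from 41.3 ± 0.553 to 51.4 ± 1.93 FPKM, but 0.01 after rescaling to TPM (adjusted p = 0.927). Relative to the median of all genes it lay 0.33 higher as deposited and 0.31 higher under TPM.

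*SUN1* and *SUN2* encode the SUN-domain proteins of most tissues, which cross the inner membrane and hold KASH-domain proteins of the outer membrane. *SUN1*, on chr7:816615-896435 (plus strand), was 12.9, 12.5 and 12.9 FPKM in DMSO against 19.1, 18.5 and 19.0 FPKM in ARV-825. It rose by a log2 fold change of 0.53 (SE 0.0344, 95% interval 0.45 to 0.62, adjusted p = 9.20e-06 from limma) and by 0.25 under TPM (adjusted p = 0.00255). *SUN2*, on chr22:38734725-38794143 (minus strand), was 13.3, 12.5 and 12.6 FPKM in DMSO against 9.75, 8.85 and 8.58 FPKM in ARV-825. It fell, with a log2 fold change of −0.46 (SE 0.0540, 95% interval −0.59 to −0.33, adjusted p = 0.000198 from limma), so that this related pair moved in opposite directions. The ratio of *SUN1* to *SUN2* was 0.970, 0.995 and 1.02 in DMSO against 1.96, 2.10 and 2.21 in ARV-825, a log2 change of 1.07. Both genes share exon bases with neighbours. *GET4*, which went from 1.56 to 2.97 FPKM, covers 15.6% of the *SUN1* exon bases on the same strand. *GTPBP1*, which went from 11.5 to 15.2 FPKM, covers 10.5% of the *SUN2* exon bases on the opposite strand, where 3 antisense RNAs cover 3.64% to 6.93% each, and *DNAL4* covers 1.17% on the same strand. The part of these overlaps was not tested, and the values of both SUN genes are uncertain to that extent.

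The order of the 8 levels differed between the groups. In DMSO it ran *LMNB2*, *LMNA*, *LMNB1*, *EMD*, *LBR*, *TMPO*, *SUN2* and *SUN1* in FPKM, which is per length of exon, and only the last pair overlapped between libraries. In ARV-825 it ran *LMNA*, *LMNB2*, *EMD*, *LBR*, *LMNB1*, *SUN1*, *SUN2* and *TMPO*, where *LBR* overlapped with *LMNB1* and *LMNB1* with *SUN1*. Thus *LMNB1* moved from a level above 96.7% of the genes tested to one above 84.3%, and *TMPO* from above 85.1% to above 56.6%. By log2 fold change, *LMNB2* stood above 13.5% of the genes tested, *LBR* above 21.0%, *SUN2* above 28.4%, *LMNA* above 64.6%, *EMD* above 68.5% and *SUN1* above 78.8%. The median of the 8 was −0.56, beside −0.02 for all genes tested. Each of the 8 single-gene comparisons gave an exact two-sided permutation p of 0.1, again the smallest possible. Without ARV-825 replicate 1, all 8 genes kept their direction and an adjusted p under 0.05 in limma's test, whereas *LMNA* lost its call without DMSO replicate 1 (adjusted p = 0.0630) and without DMSO replicate 3 (adjusted p = 0.0615).

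Other inner membrane genes did not share 1 direction. Of 13 listed, all tested, 6 passed the adjusted p as higher and 6 as lower, with a median log2 fold change of 0.12 as deposited, beside 37% higher and 40.2% lower and a median of −0.02 over all genes tested. Under TPM 4 were higher and 8 lower, with a median of −0.16, but over all genes tested 23.6% were then higher and 53.7% lower, with a median of −0.31. These shares and medians over all genes are the background for each list that follows. *TOR1B*, a torsin ATPase gene of the envelope, rose from 13.3 to 33.6 FPKM (log2 fold change 1.28). *NRM*, the nurim gene, fell from 20.2 to 5.87 FPKM (−1.64), and *TMEM201*, the gene of SAMP1, which works with the SUN proteins, fell from 9.45 to 3.10 FPKM (−1.35). *CTDNEP1*, a membrane phosphatase that acts on lipin, fell from 23.0 to 11.3 FPKM (−0.97), while *CNEP1R1*, its regulatory subunit, rose from 2.81 to 5.82 FPKM (0.84). The LEM-domain relatives of *EMD* and *TMPO* had smaller changes than *TMPO*, with *LEMD2* at −0.37, *LEMD3* at 0.12 and *ANKLE2* at 0.12 (adjusted p = 0.0561 from limma), and with *LEMD3* and *ANKLE2* below 0 under TPM (−0.16 and −0.15).

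Of 7 genes, which encode KASH-domain partners of the SUN proteins or are other SUN-domain genes, 3 were tested, with 2 lower and 1 higher. The nesprin genes *SYNE2*, from 4.37 to 1.86 FPKM (log2 fold change −0.91), and *SYNE3*, from 1.65 to 0.552 FPKM (−0.77), fell. *SYNE3* passed the filter only through the DMSO group, where it is high, so its count among the lower genes carries no weight. *SPAG4*, a SUN-domain gene, was 2.28 and 3.13 FPKM (0.33, adjusted p = 0.000923 from limma), and under TPM its adjusted p was 0.102. *SYNE1* and *SYNE4* lay under the filter at 0.105 and 0.577 FPKM in DMSO against 0.0103 and 0.615 FPKM in ARV-825, and *SUN3* and *SUN5* were at or near 0.

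The enzymes that finish the lamin tail were also mixed, with 2 of 5 higher, 2 lower and 1 not called as deposited, and 0 higher and 3 lower under TPM. *RCE1*, the protease that trims the tail (log2 fold change −0.65), and *ICMT*, the methyltransferase of the last shared step (−0.58), fell. The farnesyltransferase subunit genes *FNTA* (0.36) and *FNTB* (0.23) were higher in FPKM, but under TPM their values were 0.11 and 0.02 and neither was called. *ZMPSTE24*, whose protease cuts prelamin A, was 24.9 and 23.3 FPKM (−0.09, adjusted p = 0.178 from limma), but it was called lower after scaling to fragments in genes (−0.18, adjusted p = 0.0270) and under TPM (−0.40, adjusted p = 0.000291).

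Chromatin proteins that bind the lamina or its membrane proteins were lower in 5 of 8 cases and higher in 1, with a median log2 fold change of −0.30, against 40.2% lower and 37% higher over all genes. Under TPM 7 were lower and 0 higher, with a median of −0.61, against 53.7% lower and 23.6% higher. *BANF1*, the gene of BAF, which emerin and LAP2 bind, fell from 93.9 to 48.8 FPKM (−0.93). The heterochromatin protein genes *CBX1* (−0.57), *CBX3* (−0.43) and *CBX5* (−0.39), partners of *LBR*, fell as well. The 1 higher gene was *RB1*, a partner of lamin A and LAP2 alpha, at 0.22 in FPKM but −0.06 under TPM. With the replicate number as a block, the count of higher genes in this list was 0.

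Genes that take the envelope apart in mitosis and reseal it were lower in 8 of 14 cases and higher in 5, with a median of −0.55, against 40.2% lower and 37% higher over all genes. Under TPM 8 were lower and 0 higher, with a median of −0.90, and the 8 of 14 lower genes are near the 53.7% of all genes lower under that scaling. The mitotic kinase genes *CDK1* (29.2 to 7.98 FPKM, log2 fold change −1.75), *PLK1* (37.0 to 11.1 FPKM, −1.65), *NEK2* (13.8 to 5.40 FPKM, −1.20) and *VRK1* (23.1 to 10.6 FPKM, −1.05) fell, CDK1 being a kinase that phosphorylates lamins and VRK1 one that phosphorylates BAF. *CHMP7*, the membrane-resealing gene that *LEMD2* recruits, was higher at 0.38 in FPKM and 0.09 under TPM (adjusted p = 0.125). These mitotic genes and the B-type lamins and *TMPO* were lower in the same libraries, and a smaller share of dividing cells was not tested as a part of the lamin values.

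The sterol reductase activity of *LBR* has a partner enzyme, *TM7SF2*, and of 9 genes of the neighbouring steps of cholesterol synthesis 6 were lower and 2 higher, with a median of −0.54, against 40.2% lower and 37% higher over all genes. *EBP*, the sterol isomerase gene, fell from 27.6 to 10.4 FPKM (log2 fold change −1.33). *DHCR7* (−0.88) and *TM7SF2* (−0.64), both reductases of the pathway, fell too, so *TM7SF2* and *LBR* had changes of similar size. Under TPM 7 were lower and 0 higher, with a median of −0.98, where 53.7% of all genes were lower and 23.6% higher. Of the lower genes, *CYP51A1* (1.56 to 0.758 FPKM) passed the filter only through the DMSO group, so its count among the lower genes carries no weight under either scaling. The deposited median of −0.54 is the value of *CYP51A1* itself and carries no weight either.

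Loss of *LMNB1* transcript is read in many systems beside other senescence marks, and 8 of 12 such genes were tested, of which 5 were higher and 3 lower as deposited and 3 higher and 3 lower under TPM. *CDKN1A*, the gene of the cell-cycle inhibitor p21, was 2.85, 2.80 and 2.83 FPKM in DMSO against 31.1, 26.3 and 26.9 FPKM in ARV-825 (log2 fold change 2.92, adjusted p = 2.05e-07 from limma). *CDKN2B*, the gene of the inhibitor p15, rose from 2.39 to 9.89 FPKM (1.68). *CXCL8*, a chemokine gene, was listed at 0 in the DMSO group and measured 17.5, 20.7 and 20.7 FPKM after ARV-825 treatment. It passed the filter only through the ARV-825 group, so its place among the higher genes was fixed by the filter. The chromatin protein gene *HMGB2*, which senescent cells lose, fell from 98.3 to 30.3 FPKM (−1.67), and *HMGB1* (−1.29) and the proliferation gene *MKI67* (−1.59) fell with it. *CDKN2A* was higher at 0.19 in FPKM and lay at −0.12 under TPM. Under the filter, *IL1A* was at 0 in every library, *IL6* was 0.0353 and 0.338 FPKM and *IL1B* 0.0241 and 0.0143 FPKM in DMSO and ARV-825. The list thus held rises and falls beside the *LMNB1* fall, and no assay of senescence enters these values.

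Genes for the cleavage and turnover of lamins were higher in 4 of 6 cases and lower in 1, and in 3 and 1 under TPM. *MAP1LC3B*, the gene of an autophagy protein that binds lamin B1, rose from 7.98 to 27.1 FPKM (log2 fold change 1.65), and *RNF123*, a ubiquitin ligase gene with lamin B1 among its targets, rose from 4.77 to 10.4 FPKM (0.98). *SMURF2*, a ubiquitin ligase gene, rose by 0.49. *CASP6*, whose protease cuts lamin A, fell from 5.05 to 2.61 FPKM (−0.74). Protein levels were not analysed here.

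**Figure D4:**
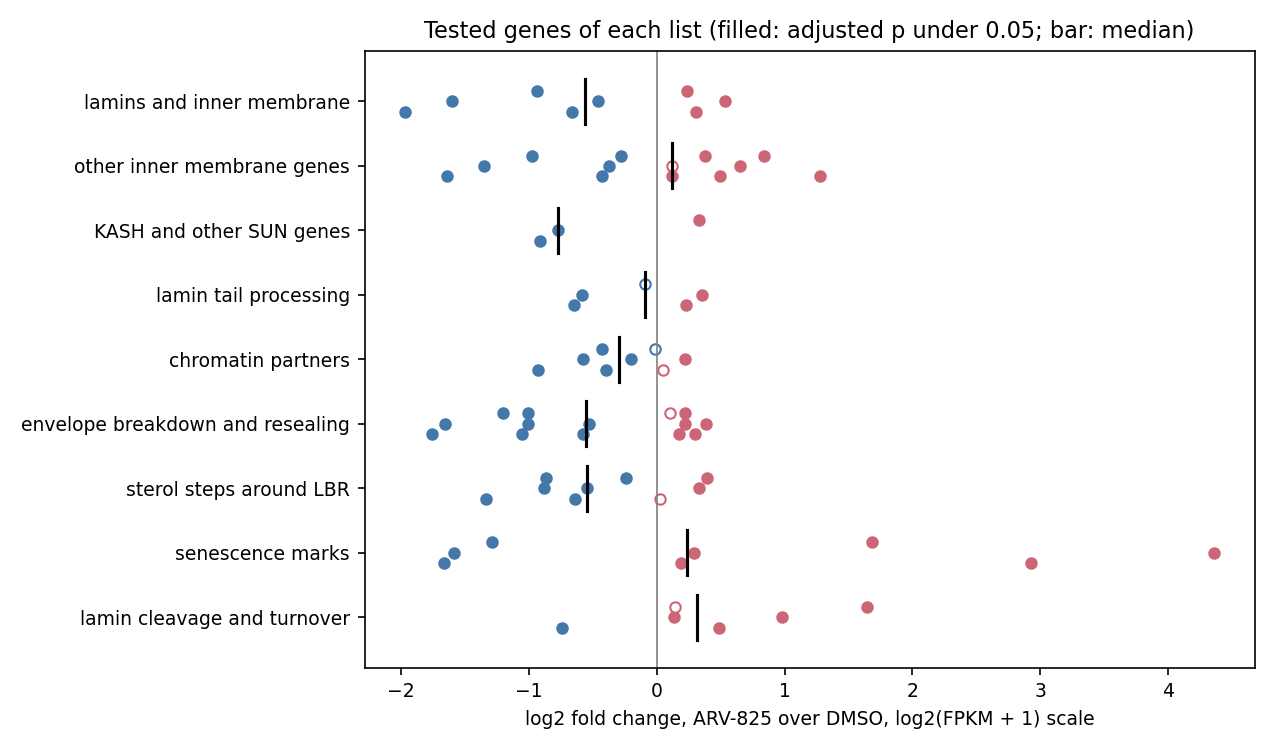
Log2 fold change (horizontal axis, ARV-825 over DMSO, log2(FPKM + 1) scale) of every tested gene in the 8 lamina genes and in each related list, filled where the adjusted p was under 0.05, red above 0 and blue below it, with a bar at the median of the list. The medians run from −0.77 for the 3 tested KASH and SUN genes to 0.31 for cleavage and turnover, beside −0.02 for all genes. The −0.77 is the value of *SYNE3* itself, which passed the filter only through the DMSO group, so that median carries no weight. Under TPM the median of all genes is −0.31, and some points just above 0 fall below 0. *LMNA* is among them, at −0.07, which is still above that median.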

How the data were processed

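RNA-seq of HGC27 cells (3 DMSO and 3 ARV-825 libraries) was analysed from 1 table of the whole series with 1 column per library. The authors deposited FPKM values. According to the submitters' processing notes reads were aligned with HISAT2 2.0.5. The notes name the mouse build mm10, although all 58735 identifiers are human and found in GENCODE 29, from which exon lengths and coordinates were taken. For the counting step no tool is given in the sources used here. FPKM times exon length gave whole fragments within 0.05 for 100% of values. The depth implied by the FPKM values exceeded the recovered fragments in the DMSO libraries and fell short of them in the ARV-825 libraries, so deposited FPKM are raised in ARV-825 relative to DMSO. How that depth was set is not stated.

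For the 13442 genes whose mean FPKM reached 1 (45293 were left out), log2(FPKM + 1) was compared with limma 3.58.1 in R 4.3.3 (lmFit, eBayes with trend), with Benjamini-Hochberg adjustment over the genes tested. Called genes had an adjusted p under 0.05. The script was tested on simulated data. Single genes and ratios were compared by exact two-sided permutation tests. The members and lists were chosen with earlier results of these data known. Named are the 8 genes, up to 4 members of each list with the largest called change, every member of a list of 6 or fewer, overlapping genes and copies, and the 5 genes most like *LMNB1* and *LMNA*. Some genes this rule takes are not reported here. Other genes complete small counts and were chosen after their values were seen. Alternatives covered the pseudocount, filter, scaling, variance model, voom, replicate block and each library left out.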

Additional observations from a re-analysis of the deposited data

How the results depend on the processing

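Across the pseudocounts, filters, scalings, variance models, replicate block and left-out libraries, *LMNB1*, *TMPO*, *LMNB2*, *LBR* and *SUN2* stayed lower and *SUN1* higher, each at an adjusted p under 0.05. For *LMNA* the log2 fold change was 0.24 with the filter removed (adjusted p = 0.0530), 0.15 after scaling to fragments in genes (adjusted p = 0.0861) and −0.071 after rescaling to TPM (adjusted p = 0.471), and with 1 library left out it ran from 0.15 (without ARV-825 replicate 1) to 0.28. Its adjusted p was 0.0630 without DMSO replicate 1 and 0.0615 without DMSO replicate 3. *EMD* was 0.0054 under TPM (adjusted p = 0.927). Without replicate 1 in both groups, an alternative chosen after seeing the data, *LMNA* was 0.14 and *EMD* 0.27, both called, and scaled to fragments outside the mitochondrial genome, also added then, *LMNA* was 0.23. These values are all from limma.

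Over all genes, 1779 were higher at both thresholds with a pseudocount of 0.01, against 1184, 3176 were higher at the adjusted p under TPM, against 4977, and 2978 (TPM) or 2536 (voom) were lower at both, against 1630. Of the calls at both thresholds, 42.1% were higher as deposited, 36.6% after scaling to fragments and 26.4% under TPM. Under TPM the count of higher genes was 1 of the 8 lamina genes, 0 for KASH and SUN genes, tail processing, chromatin partners, envelope breakdown and sterol steps, and 3 for senescence marks. Tail processing had 1 higher gene with no filter, scaled to fragments or under voom, and 1 to 2 with 1 library left out. Chromatin partners had 0 with no filter or scaled to fragments and 0 to 1 with 1 library left out. Envelope breakdown had 3 scaled to fragments or under voom. The log2 change of the *SUN1* to *SUN2* ratio was 0.99 with a pseudocount of 1.

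The replicate numbers did not pair the libraries, since deviations of same-numbered libraries correlated at only 0.00421 to 0.0414, although each library correlated best with its own number. With the replicate block, chromatin partners had 0 higher genes in place of 1, other inner membrane genes 5 in place of 6, cleavage and turnover 3 in place of 4, and sterol steps 5 lower genes in place of 6. All 8 lamina genes kept their call, *LMNB1* at −1.97 (adjusted p = 2.08e-05 from limma). Intervals cover the spread of 3 libraries a group. At the depth here, 1 fragment in a gene of 1 kb was worth 0.0495 to 0.0686 FPKM, so levels under the filter rest on few fragments.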

Other observations

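Over the 6 libraries, the genes with a pattern most like *LMNB1*, by Euclidean distance of log2(FPKM + 1) after subtracting the DMSO mean and among 13441 other genes tested, were *GPX8* (distance 0.0972), *FNDC10* (0.0974), *ITPR3* (0.106), *IGSF9* (0.107) and *CDC25A* (0.108). *CDC25A*, a phosphatase gene of the cell cycle, fell from 10.4 to 1.80 FPKM, and *ITPR3*, a calcium channel gene, from 16.1 to 3.25 FPKM. The genes nearest to *LMNA* were *SGF29* (0.0566), *NDUFV1* (0.0617), *PTPRS* (0.0651), *GPR137* (0.0653) and *BORCS8* (0.0661). *NDUFV1*, a subunit gene of respiratory complex I, was 41.6 FPKM in DMSO and 48.6 FPKM in ARV-825. With 2 groups of 3 libraries such nearness mostly reflects a fold change of similar size.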
